A study of Mus musculus with 16 samples.

Results

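The 49 proteasome subunit genes of the mouse were followed in the aged brain after treatment with adropin, a peptide secreted by the brain and other organs. They are the protein-coding genes, of 40481 genes listed, whose symbols are Psma, Psmb, Psmc, Psmd, Psme, Psmf or Psmg with a number and at most 1 further letter. The rule used names only and no measured value. RNA from brain tissue of 16 male mice aged 18 months, of the strain given as C57BL in the labels and as C57BL/6J (B6) in the study's text, was sequenced after poly-A selection. Of these mice, 8 had received adropin(34-76), a synthetic fragment of the peptide, at 90 nmol/kg/d by intraperitoneal injection for 4 weeks, and 8 the diluent, saline with bovine serum albumin. All were of 1 strain, age and sex and came from treatment groups of 15, so the data hold no young mice with which an effect of age could be measured.

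The proteasome is the main protease of the cytosol and nucleus and degrades proteins tagged with ubiquitin. Its core is a barrel of stacked rings, in which the outer rings consist of alpha subunits (Psma genes) that gate the entrance and the inner rings of beta subunits (Psmb genes), some of which carry the active sites. A regulatory particle of ATPases (Psmc) and non-ATPase subunits (Psmd) recognises, unfolds and feeds in the substrates. Activators (Psme) bind the end of the core instead, Psmf1 encodes an inhibitor of the core, and chaperones (Psmg) assist its assembly. Under interferon signalling the active beta subunits are replaced by inducible ones, Psmb8, Psmb9 and Psmb10, which gives the immunoproteasome, a form that favours the production of peptides for presentation to T cells. In the brain the immunoproteasome is known mainly from glia and from inflammation.

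The members comprised 7 alpha ring, 7 beta ring and 3 inducible catalytic genes, 2 core genes known from testis (Psma8) and thymus (Psmb11), 6 ATPases, 14 non-ATPase regulatory genes, 5 activators, 1 inhibitor and 4 assembly chaperones. Of these, 47 passed the filter of more than 1 CPM (a count scaled to the library total) in at least 7 mice. Libraries held 35026503 to 70314050 counts. TMM-normalized CPM, which are corrected for differences in library composition, are the unit of level below, and a log2 fold change is adropin minus saline. Markers of neurons, astrocytes, oligodendrocytes, microglia and endothelium were all detected, as the labelled tissue requires, whereas 4 T cell markers stayed at or below 0.832 TMM-normalized CPM in every mouse. All 5 choroid plexus markers had an unadjusted p below 0.05 in the direction of lower levels in adropin (median log2 fold change -1.31), with summed levels of 11.1 to 73.4 TMM-normalized CPM in adropin and 12.6 to 2460 in saline, where mouse 8_3 held the highest value. Without that mouse 2 of the 5 had such a p, the median log2 fold change was -0.67 and the highest saline sum was 328. For Ttr, the most abundant of them, the adropin median of 12.96 lay above the saline median of 11.8. Of 4 cerebellar markers, 3 lay far above the saline median in the same mouse, with 91.7 TMM-normalized CPM for Car8 (saline median 5.33), 28.2 for Pcp2 (0.227) and 126 for Cbln1 (23.1), and Car8 had an unadjusted p of 0.0338. Mouse 8_3 is also among the mice with high levels of proteasome genes described below. All 5 microglial markers had a log2 fold change above 0 (median 0.14) and all 4 oligodendrocyte markers one below 0 (median -0.19). The part of tissue composition in the levels of the members was not tested. Each mouse carries the number pair of its label as its name. In whole tissue, fewer cells of a type and less RNA per cell cannot be told apart.

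Psma8, which takes the place of Psma7 in the testis, and Psmb11, the beta subunit of the thymus, did not pass the filter. Psma8 ranged from 0.101 to 0.607 TMM-normalized CPM in adropin and from 0.106 to 0.374 in saline, on 4 to 22 counts per mouse. Psmb11 ranged from 0.0754 to 0.401 in adropin and from 0.0832 to 0.242 in saline, on 3 to 17 counts. Both were thus present at the level of a few reads, and their groups overlapped.

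Levels were first compared between subunits per length, as TMM-normalized CPM per kilobase of the principal transcript in the annotation, with no test. Genes of the beta ring lay close together. Psmb6, which carries the caspase-like active site, had the highest level of the core at 132 ± 21.4 per kilobase (SD, n = 16), and Psmb5, which carries the chymotrypsin-like site, the lowest of its ring at 60.5 ± 9.12, a ratio of 2.18. Exons of Psmb5 share 109 bases with Mir686 on the same strand. Ambiguous reads were not counted, so the level of Psmb5 may be too low. Psmb7, with the trypsin-like site, at 79.0 ± 8.84 and Psmb3 at 75.9 ± 11.2 did not differ beyond their spread. The order within this ring depended on the length used, since with the length of all annotated exons Psmb5 was the highest (60.5 per kilobase) and Psmb3 the lowest (25.3). In the alpha ring the levels ran from 96.8 ± 10.4 per kilobase for Psma7 to 21.4 ± 2.36 for Psma2, a ratio of 4.52. With the length of all annotated exons Psma6 was the highest (46.1 per kilobase), ahead of Psma5 (32.1) and Psma7 (28.8), and Psma2 stayed the lowest (16.98), a ratio of 2.71 from highest to lowest.

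Among the ATPases, which form the unfolding motor, Psmc5 stood highest at 134 ± 15.7 per kilobase and Psmc6 lowest at 22.6 ± 1.47, a ratio of 5.95. The non-ATPase genes spread more widely, by a ratio of 15.1. At their upper end were Psmd4, a ubiquitin receptor, with 91.6 ± 9.65 per kilobase, and Psmd3, a subunit of the lid, with 70.5 ± 2.82. With the length of all annotated exons the order was Psmd2 (47.8), Psmd4 (43.5), Psmd7 (43.3) and Psmd3 (30.5). At their lower end were Psmd9 (11.4 ± 1.38), Psmd10 (8.36 ± 0.823) and Psmd5 (6.07 ± 0.640), which are known as chaperones of regulatory particle assembly and not as subunits of the finished particle. The assembly chaperones of the core, Psmg1 to Psmg4, lay in the same low range, from 6.72 for Psmg3 to 13.5 for Psmg4 per kilobase, a ratio of 2.01 that was 6.60 with the length of all exons, where Psmg3 had 2.05. Exons of Psmg3 share 280 bases with Gm26938 on the same strand, so its level may likewise be too low.

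Levels of the inducible subunits were unequal. Psmb10 reached 30.3 ± 4.62 per kilobase, whereas Psmb8 had 1.88 ± 0.449 and Psmb9 1.61 ± 0.363. As a percentage of the constitutive subunit that each replaces, Psmb8 was at 3.18% of Psmb5 in adropin and 3.05% in saline, Psmb9 was at 1.24% of Psmb6 in adropin and 1.196% in saline, and Psmb10 was at 38.2% of Psmb7 in adropin and 38.6% in saline. With the length of all exons, over all mice, these were 1.499%, 1.06% and 87.1%, so the low share of Psmb8 and Psmb9 held under both lengths while that of Psmb10 did not. Among the activators, Psme3, the nuclear PA28 gamma, was highest at 48.7 ± 1.49 per kilobase. Psme1 and Psme2, which together form the interferon-inducible PA28, had 33.6 ± 4.85 and 21.2 ± 3.45, and Psme4, the large activator PA200, had 5.57 ± 0.571.

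**Figure D1:**
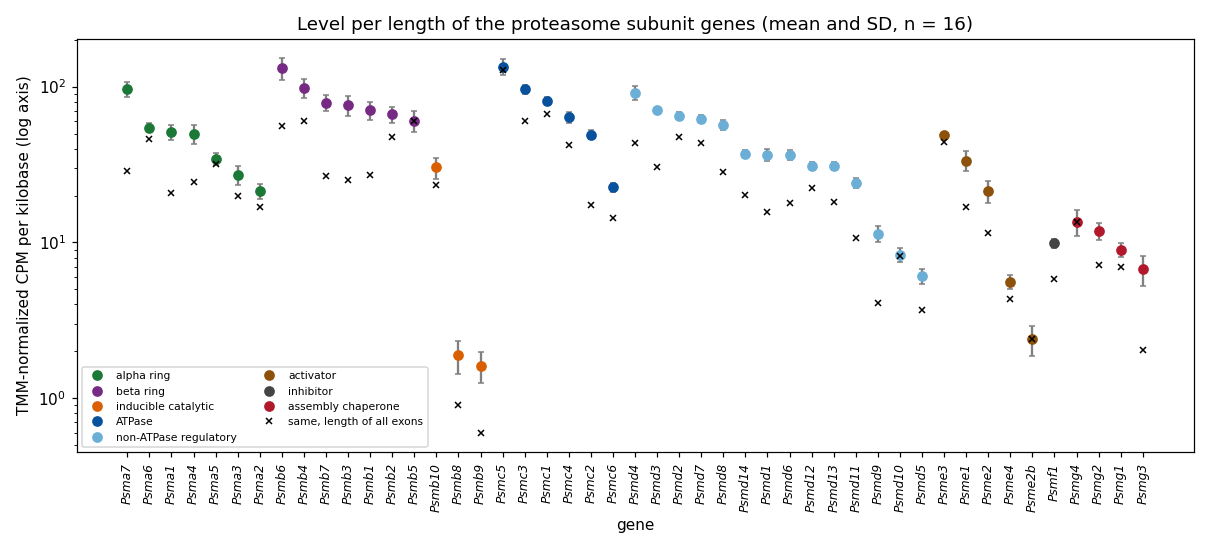
Mean level per length of each tested proteasome subunit gene over the 16 mice, in TMM-normalized CPM per kilobase of the principal transcript on a log axis, with SD bars and colours for classes. Crosses give the level with the length of all annotated exons. Psmb8 and Psmb9, near 1.88 and 1.61, lie far below the constitutive beta genes, which run from 60.5 to 132.

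The question of the treatment comparison is whether 4 weeks of adropin altered the expression of the proteasome in old mice. No subunit gene passed the test. Of the 47 tested members, 0 had an unadjusted p below 0.05 in edgeR's quasi-likelihood test, beside 3.99% of all 14949 genes tested, and 0 passed the study's cut-off of a fold change above 1.5 with that p, beside 0.421%. The adjusted p was below 0.05 for 0 members and for 0% of all genes (edgeR, Benjamini-Hochberg adjustment over all genes), and the smallest among the members was 0.874. DESeq2 and limma-voom gave 0 members with an unadjusted p below 0.05 as well, beside 4.77% and 3.99% of all genes. With the first label number as a replicate block the count was 1 of 47, the activator Psme1 (log2 fold change -0.32, unadjusted p of 0.0430, edgeR adjusted p = 0.939), beside 2.19% of all genes in that fit. The treatment difference of that fit comes only from 8 mice that share a first number with a mouse of the other group. Mouse 5_4 is 1 of them. The smallest unadjusted p, 0.109, belonged to Psmc2, named here after its values were seen.

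The fold changes were small and most were below 0. The log2 fold change was below 0 for 37 of the 47, beside 50.8% of all genes tested, with a median of -0.05 beside -0.002 for all genes. It ran from -0.18 for Psme2b to 0.06 for Psmf1. The 95% interval of the fold change lay within 1.5-fold in either direction for 47 of 47 members, beside 90.4% of all genes, and within 1.2-fold for 34 of 47, beside 44.1%. The lowest bound of any member was a fold of 0.711 and the highest was 1.27, so a larger difference in any one tested gene lies outside its interval. The values of the treatment groups overlapped for all 47 members, as for nearly all genes, since only 0.00669% of those tested had groups that did not overlap. The number below 0 was 27 of 47 without saline mouse 5_4, beside 49.7% of all genes, with a median log2 fold change of -0.01, and 35 of 47 without mouse 8_3, beside 49.6%, with a median of -0.03. The median was also -0.03 without adropin mouse 2_1. It was 41 of 47 with the first label number as a replicate block, beside 50.2%, with a median of -0.12, and 40 of 47 with the second, beside 49.9%, with a median of -0.08.

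**Figure D2:**
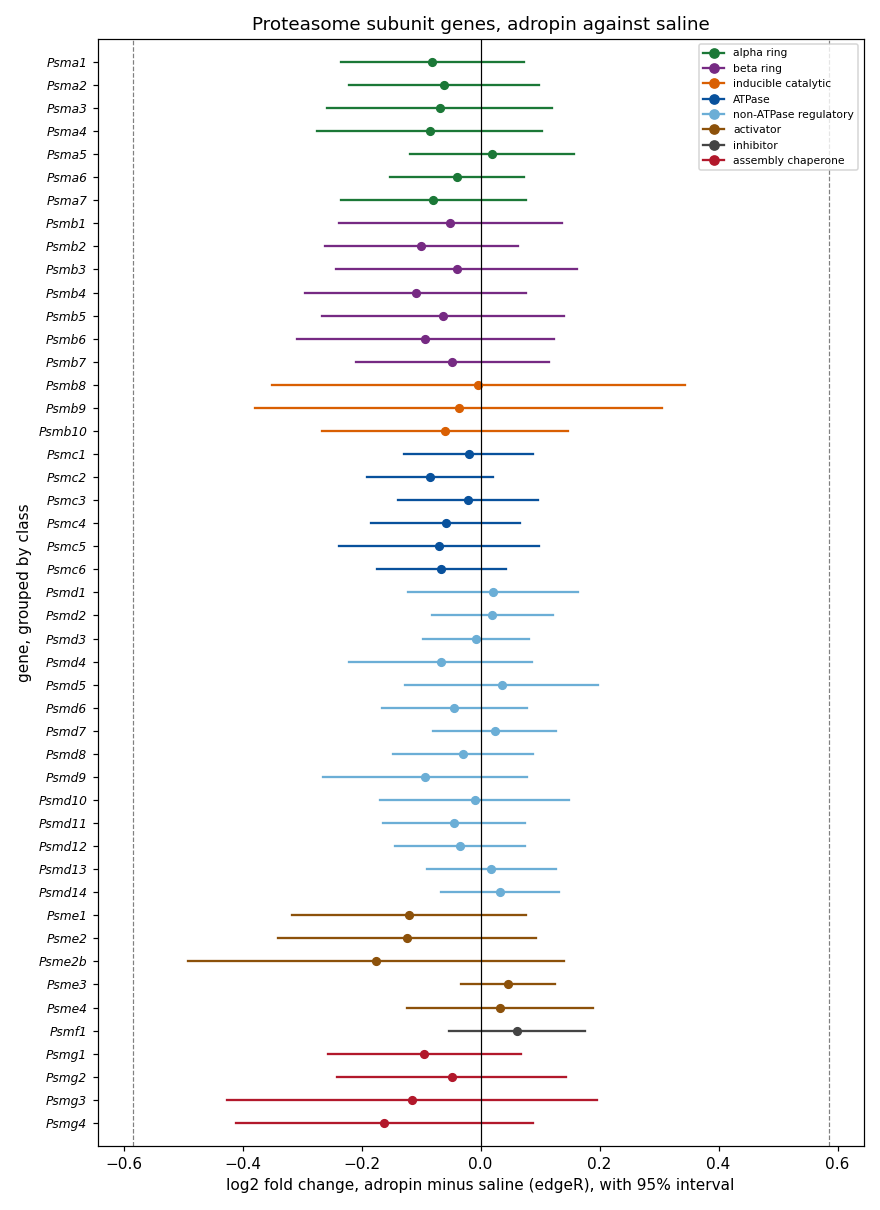
Log2 fold change of each tested member, adropin minus saline, with the 95% interval from edgeR's fit (8 mice per group), grouped and coloured by class. The dashed lines mark the study's fold cut-off of 1.5, which no interval reaches, and each of the 47 intervals spans 0.

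In the core, 13 of the 14 constitutive ring genes had a log2 fold change below 0 and 0 had an unadjusted p below 0.05. The alpha ring had 6 of 7 below 0, with values from -0.09 to 0.02, and the beta ring 7 of 7, from -0.11 to -0.04. Psma2, the alpha subunit with the lowest level per length, had 53.7, 60.4 and 68.6 TMM-normalized CPM as the lowest, median and highest adropin mouse and 56.8, 59.4 and 76.3 in saline. The adropin mice thus lay within a range that the saline mice exceeded only at the top. This gave a log2 fold change of -0.06 ± 0.08 (SE, edgeR adjusted p = 0.882).

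The 3 constitutive catalytic genes gave the same picture. Psmb5 had 46.1, 50.8 and 65.4 TMM-normalized CPM as the lowest, median and highest value in adropin and 47.8, 51.0 and 78.1 in saline. The medians were almost equal, and the highest value of each group came from mouse 4_3 in adropin and mouse 5_4 in saline. Its log2 fold change was -0.06 ± 0.10 (SE, edgeR adjusted p = 0.893), and it was 0.02 without mouse 5_4.

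Psmb6 had 83.8, 97.9 and 129 TMM-normalized CPM in adropin and 95.2, 99.4 and 151 in saline, in the same order. Its log2 fold change of -0.09 ± 0.10 (SE, edgeR adjusted p = 0.877) was -0.01 without mouse 5_4. Psmb7 had 80.3, 88.0 and 103 in adropin and 81.8, 89.2 and 118 in saline, with a log2 fold change of -0.05 ± 0.08 (SE, edgeR adjusted p = 0.899) that was 0.0074 without mouse 5_4. For both genes mouse 5_4 was again the highest of all mice. Exons of Psmb7 share 405 bases with Nek6 on the other strand, and whether counting used strand was not stated. Only reads with an unambiguous assignment were counted, so without strand the reads in these bases would be missing from the counts.

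The sequence before the start sites of Psmb5 and Psmb6 is shown because these are catalytic genes of the core and the factor Nfe2l1 is known to drive proteasome genes through a short element. Of the 7 beta ring genes, 4 had an entry in the table used, and the windows of the other two, Psmb3 and Psmb4, held no match to this element. The bases come from the RefSeq promoter table for GRCm38.p6 and are printed 5′ to 3′ on the strand of the gene, at chr14:54618023-54618245 (minus strand, 223 bases) and chr11:70525107-70525356 (plus strand, 250 bases), with each match to TGACNNNGC, the core of the antioxidant response element, in capitals.
Psmb5: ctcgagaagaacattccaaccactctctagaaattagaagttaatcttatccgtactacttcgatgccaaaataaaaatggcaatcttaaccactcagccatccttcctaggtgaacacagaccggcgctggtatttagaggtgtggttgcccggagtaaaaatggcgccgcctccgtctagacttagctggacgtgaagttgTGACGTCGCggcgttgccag
Psmb6: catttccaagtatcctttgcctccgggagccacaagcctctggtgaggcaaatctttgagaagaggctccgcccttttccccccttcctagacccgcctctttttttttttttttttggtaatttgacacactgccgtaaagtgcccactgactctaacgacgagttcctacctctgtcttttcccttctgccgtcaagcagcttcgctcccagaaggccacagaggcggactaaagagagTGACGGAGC

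The match in Psmb5 begins 47 bases and that in Psmb6 9 bases before the RefSeq start site. For Psmb5 the last 27 bases before that site are not printed, since the GENCODE annotation places them inside the gene, so the stretch ends short of the site. Of the 49 members, 41 had an entry in the table, with 44 windows of 250 bases before a start site. TGACNNNGC was found on either strand in 5 of the 44 windows (Psmb5, Psmb6, Psmc6, Psmd9 and Psmd12), or 11.4%, beside 10.2% of all 32851 windows in the table. CCAAT was found in 14 of the 44, or 31.8%, beside 33.9% of all windows, and GGGCGG in 23, or 52.3%, beside 32.7%. These matches are a description of the letters, and the windows of all genes include those of non-coding genes.

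Of the 20 Psmc and Psmd genes, 14 had a log2 fold change below 0, 6 of 6 ATPases and 8 of 14 non-ATPase genes, and 0 had an unadjusted p below 0.05. These genes include Psmd5, Psmd9 and Psmd10, named above as chaperones of regulatory particle assembly. Psmc5 had 153, 171 and 201 TMM-normalized CPM as the lowest, median and highest value in adropin and 153, 174 and 222 in saline, so the lower ends coincided. The log2 fold change was -0.07 ± 0.08 (SE, edgeR adjusted p = 0.878). Psmc6 had 46.5, 48.4 and 54.4 in adropin and 45.4, 51.7 and 56.9 in saline, with a log2 fold change of -0.07 ± 0.05 (SE, edgeR adjusted p = 0.874). Intervals were narrow here, with 19 of the 20 inside 1.2-fold.

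Psmd5 belonged to the 3 members with the highest fold changes. It had 23.4, 25.98 and 31.7 TMM-normalized CPM in adropin and 21.7, 26.1 and 31.0 in saline, where mouse 4_3 was the lowest of the adropin and mouse 5_4 the lowest of the saline group. These are the mice in which most other members were highest. The estimate, a log2 fold change of 0.04 ± 0.08 (SE, edgeR adjusted p = 0.923), was -0.0003 without mouse 5_4.

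The activators and the inhibitor lay at both ends of the range of fold changes. Psme2 had 16.9, 18.6 and 23.7 TMM-normalized CPM as the lowest, median and highest value in adropin and 17.3, 20.1 and 29.4 in saline, a log2 fold change of -0.12 ± 0.10 (SE, edgeR adjusted p = 0.874). Psme2b, a second gene copy of Psme2, had 1.41, 1.85 and 2.46 in adropin and 1.61, 1.99 and 2.97 in saline, on 56 to 120 counts. Its log2 fold change of -0.18 ± 0.15 (SE, edgeR adjusted p = 0.874) rests on few reads, and reads shared with Psme2 were not counted, so the values of both genes are uncertain.

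Psme3 had 126, 133 and 135 TMM-normalized CPM in adropin and 122, 127 and 134 in saline, with a log2 fold change of 0.05 ± 0.04 (SE, edgeR adjusted p = 0.874). In relation to its mean it varied least of the activators. The inhibitor Psmf1, also known as PI31, had 35.6, 38.4 and 40.8 in adropin and 32.9, 36.7 and 42.1 in saline, a log2 fold change of 0.06 ± 0.05 (SE, edgeR adjusted p = 0.874) that turned to -0.03 with the first label number as a replicate block. The saline mice enclosed the adropin mice on both sides.

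Of the 4 assembly chaperones, 4 had a log2 fold change below 0. Psmg4, which pairs with Psmg3 in the assembly of the alpha ring, had 5.85, 6.90 and 9.74 TMM-normalized CPM in adropin and 6.09, 7.61 and 10.9 in saline. The highest adropin value came from mouse 4_3 and the highest saline value from mouse 5_4. The log2 fold change was -0.16 ± 0.12 (SE, edgeR adjusted p = 0.874). Without mouse 4_3 it was -0.23, with an unadjusted p of 0.0462, the only member below 0.05 in that fit, in which 9.67% of all genes were.

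The immunoproteasome genes did not pass the test either. Psmb8 had 2.31, 2.93 and 4.39 TMM-normalized CPM as the lowest, median and highest value in adropin and 2.07, 2.82 and 4.60 in saline, on 77 to 200 counts per mouse. The groups covered almost the same range. Its log2 fold change was -0.004 ± 0.17 (SE, edgeR adjusted p = 0.997), and its sign turned with the mouse left out (range -0.09 to 0.10). Exons of Psmb8 share 498 bases with Gm20496 on the other strand.

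Psmb9 had 1.53, 2.01 and 3.18 TMM-normalized CPM in adropin and 1.59, 2.20 and 2.81 in saline, on 59 to 154 counts. Here mouse 7_4 was the highest in adropin and mouse 6_2 in saline, not the mice that led most members. The log2 fold change was -0.04 ± 0.16 (SE, edgeR adjusted p = 0.967). Psmb10 had 34.6, 37.96 and 47.3 in adropin and 34.5, 37.3 and 55.9 in saline, a log2 fold change of -0.06 ± 0.10 (SE, edgeR adjusted p = 0.902) that was 0.02 without mouse 5_4. At the depth of these libraries the intervals of Psmb8 and Psmb9, from 0.785 to 1.27 and from 0.769 to 1.24 as folds, were the widest among the catalytic genes.

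**Figure D3:**
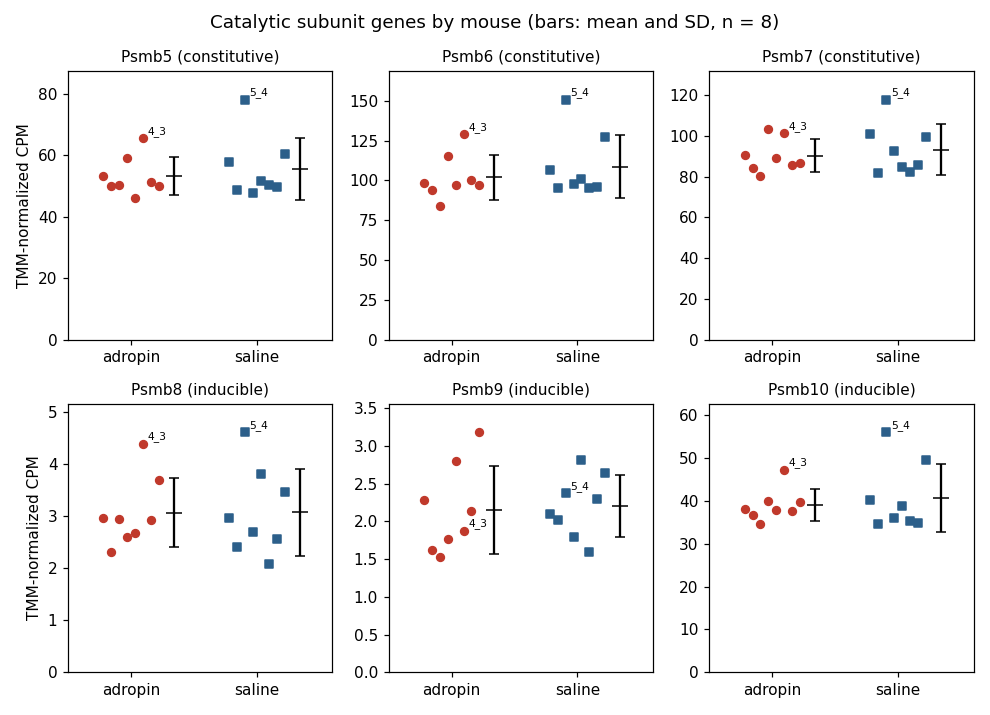
TMM-normalized CPM of the 3 constitutive catalytic genes (top) and of the inducible gene that replaces each (bottom), 1 point per mouse (adropin circles, saline squares), with mean and SD bars for 8 mice and mice 4_3 and 5_4 named. Groups overlap in every panel, and mouse 5_4 is the highest point for every gene shown except Psmb9.

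Because an exchange of subunits would alter the ratio within a mouse, the log2 ratio of each inducible to its constitutive gene was compared by a two-sided exact permutation test, with adjustment over the 3 pairs. For Psmb8 to Psmb5 it averaged -4.12 ± 0.242 in the adropin and -4.18 ± 0.235 in the saline group (SD, n = 8 per group, exact permutation p = 0.577, adjusted 0.980). Psmb9 to Psmb6 was -5.57 ± 0.415 and -5.60 ± 0.266 (SD, n = 8 per group, exact permutation p = 0.864, adjusted 0.980). Psmb10 to Psmb7 was -1.21 ± 0.0815 and -1.21 ± 0.130 (SD, n = 8 per group, exact permutation p = 0.980, adjusted 0.980). The differences of 0.07, 0.03 and -0.001 on the log2 scale were all smaller than the spread between mice, and those of Psmb9 and Psmb10 turned sign with the mouse left out. Within blocks of mice that share a first label number the differences for Psmb8 and Psmb9 were larger, 0.31 and 0.34 (exact permutation p = 0.444 for each, over 18 divisions). Only 8 mice are in a block that holds both groups. With 18 divisions the p of this test cannot fall below 0.05, so it decides nothing about these differences.

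**Figure D4:**
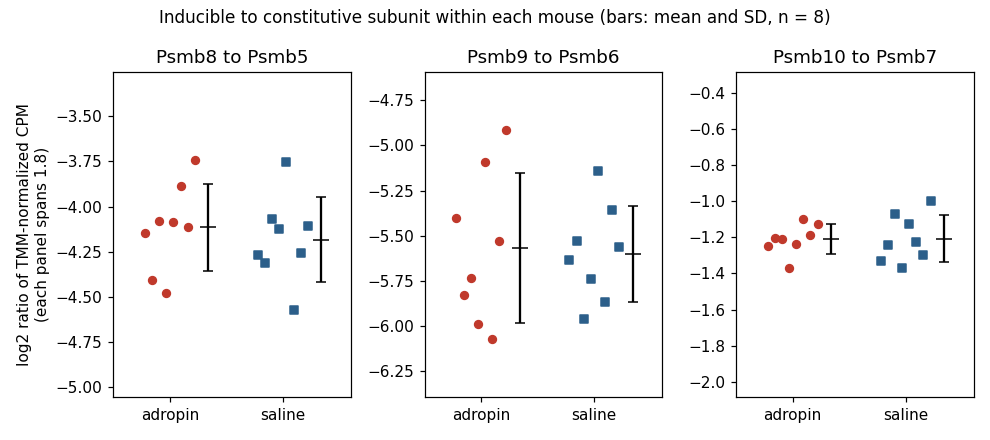
Log2 ratio of TMM-normalized CPM of each inducible catalytic gene to the constitutive gene it replaces, 1 point per mouse (adropin circles, saline squares), with mean and SD bars for 8 mice. Each panel spans the same range on its axis. Group means differ by 0.07, 0.03 and -0.001 from left to right, and the points of both groups overlap in each panel.

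Psmb8 and Psmb9 lie close together in the class II region of the major histocompatibility complex on chromosome 17 (GRCm38), at 34197721 to 34201454 and 34181987 to 34187764. All 3 pairs of inducible genes were compared over the 16 mice with group means subtracted, and p-values were adjusted over the 3. For Psmb8 and Psmb9 the Pearson r was 0.504 (permutation p = 0.0475, adjusted 0.0713) and Spearman rho 0.544 (permutation p = 0.0316, adjusted 0.0474). Psmb10, which lies on chromosome 8, had a higher r with Psmb8, 0.802 (permutation p = 0.00023, adjusted 0.00069; rho 0.738, permutation p = 0.00169, adjusted 0.00507). The r of Psmb9 with Psmb10 was 0.328 (permutation p = 0.217; rho 0.459, permutation p = 0.0762). With mice 4_3 and 5_4 left out, the 2 that lay farthest from the median of Psmb8, r was 0.723 for Psmb8 with Psmb9 and 0.590 for Psmb8 with Psmb10, and for Psmb9 with Psmb10, without 7_1 and 7_4 (farthest for Psmb9), it was 0.294. For Psmb8 with Psmb9 the p depended on single mice, since it ranged from 0.00921 to 0.136 when each was left out and was 0.05 or more in 11 of the 16 cases. Part of the scatter is counting error at these low counts.

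The subunits of the core varied together between mice. With group means subtracted, the median pairwise Pearson r over the 16 mice was 0.936 for the beta ring and 0.878 for the alpha ring, beside 0.002 for all pairs of genes tested. Genes of other abundant complexes varied together as closely, with 0.947 for 75 cytosolic ribosomal protein genes and 0.903 for 36 genes of mitochondrial complex I. It was 0.831 for the ATPases, 0.790 for the assembly chaperones, 0.571 for the non-ATPase genes, 0.504 for the inducible genes and 0.04 for the activators. These values describe 16 libraries that differ in depth and in the levels of cell type markers. Without mouse 5_4 they were 0.896 for the beta and 0.828 for the alpha ring, 0.744 for the ATPases and 0.756 for the assembly chaperones. The non-ATPase genes then had 0.400, the inducible genes 0.528, the activators 0.02, the ribosomal protein genes 0.930 and the complex I genes 0.858.

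Against the mean of the other core genes, the median r of the 47 members was 0.867. The members include the 14 core genes themselves, and the matching value over all genes was not computed. Psma3 (0.978) and Psmb3 (0.972) were the highest. Psmd5 (-0.61), Psme4 (-0.51) and Psmd2 (-0.33) were below 0, and Psmb9 (0.144) and Psme3 (0.148) came next. Without mouse 5_4 the median was 0.789, and the latter genes had 0.0934 and 0.00498. Of these, Psmd2 is a large scaffold subunit of the base of the regulatory particle.

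A pair of mice set the upper end of most members. Mouse 5_4 was the highest of the saline group for 34 of the 47 members, beside 20.8% of all genes, and mouse 4_3 the highest of the adropin group for 29, beside 22.3%. The SD of TMM-normalized CPM was larger in saline for 42 of 47, beside 66.3% of all genes. Without mouse 5_4 it was for 22 of 47, beside 54.5%, and without both mice for 36 of 47, beside 64.2%. As the mean log2 deviation from the average of the 16 mice, mouse 5_4 stood at 0.46 for the beta ring, 0.33 for the alpha ring, 0.42 for the inducible genes, 0.23 for the ATPases and 0.17 for the non-ATPase genes. Mouse 4_3 stood at 0.25, 0.17, 0.21, 0.09 and 0.07 in the same order, and saline mouse 8_3 at 0.19, 0.22, 0.28, 0.15 and 0.04.

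The same mice were high in other genes of abundant complexes. The mean log2 deviation of the ribosomal protein genes was 0.51 in mouse 5_4, 0.31 in mouse 4_3 and 0.39 in mouse 8_3, and that of the complex I genes was 0.47, 0.25 and 0.32. These lists were added after the values of the members had been seen. Mice 5_4 and 4_3 also had the smallest total counts, 35026503 and 35185051, and Gm42418, a gene at a ribosomal RNA locus, took 1.004% and 0.840% of their counts, where the other mice had 0.985% to 4.98%. Mouse 8_3, in contrast, had 46538312 counts and 1.55% Gm42418. Mouse 7_4, whose total of 35857014 was almost as small and whose Gm42418 share was 4.98%, stood at -0.11 for the beta and -0.07 for the alpha ring. The part of these values in the level of the proteasome genes was not tested.

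**Figure D5:**
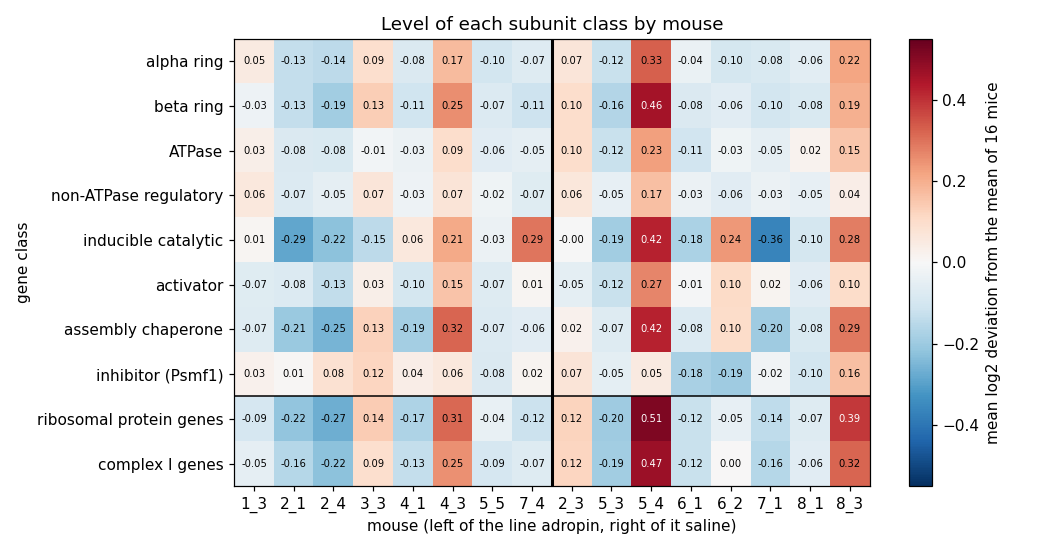
Mean log2 deviation of each subunit class from the average of the 16 mice, 1 column per mouse, with adropin left and saline right of the vertical line and the ribosomal protein and complex I genes below the horizontal line. Mouse 5_4 has the highest value in every row except Psmf1, with 0.46 for the beta ring and 0.51 for the ribosomal protein genes.

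For the rings and the inducible genes the difference between treatments in class means was small beside this spread and depended on mouse 5_4. For the beta ring the adropin mice had a mean deviation of -0.03 ± 0.151 and the saline mice of 0.03 ± 0.208 (SD over 8 mice per group), a difference of -0.07, which was -0.004 without mouse 5_4. For the alpha ring it was -0.05 and became -0.01. For the inducible genes it was -0.03 and became 0.03. The assembly chaperones kept part of their difference, which was -0.10 and became -0.05, and that of Psmf1 was 0.07 and became 0.08. With the level of Gm42418 as a covariate, 27 of the 47 members had a log2 fold change below 0, beside 49.2% of all genes, with a median of -0.01.

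Genes that work around the proteasome were taken from lists by role. Of 43 named, 40 were listed and tested, and 0 had an unadjusted p below 0.05 (background 3.99%), with 21 log2 fold changes below 0 and 19 above. With the first label number as a replicate block the count was 1, Tap1, beside 2.19% of all genes in that fit. Nfe2l1, the transcription factor that raises proteasome genes when the enzyme is inhibited, had 329, 436 and 474 TMM-normalized CPM as the lowest, median and highest value in adropin and 324, 391 and 445 in saline. Its log2 fold change was 0.11 ± 0.08 (SE, edgeR adjusted p = 0.874), and without mouse 4_3 it was 0.17 with an unadjusted p of 0.0287, in the fit where 9.67% of all genes had a p below 0.05. Pomp, the maturation factor of the core, had 66.4, 75.9 and 94.9 in adropin and 61.9, 75.5 and 120 in saline, a log2 fold change of -0.09 ± 0.12 (SE, edgeR adjusted p = 0.885).

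The partners of the immunoproteasome in antigen presentation showed the same overlap. Of 12 class I presentation and interferon genes, 6 had log2 fold changes below 0 and 6 above. Tap1, a peptide transporter subunit whose RefSeq start site lies 225 bases from that of Psmb9 on the opposite strand, had 4.35, 5.45 and 6.34 TMM-normalized CPM as the lowest, median and highest value in adropin and 4.37, 5.01 and 5.54 in saline. The upper adropin mice exceeded the saline range, and the log2 fold change was 0.14 ± 0.09 (SE, edgeR adjusted p = 0.874). Without mouse 2_4 it was 0.18, with an unadjusted p of 0.0432, beside 2.56% of all genes below 0.05 in that fit. The edgeR fit with the first label number as a replicate block also gave Tap1 an unadjusted p below 0.05, beside 2.19% of all genes. Exons of both genes share 212 bases, whose reads would likewise be missing if strand was not used. Its partner Tap2 had a log2 fold change of -0.06 ± 0.09 (SE, edgeR adjusted p = 0.893).

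B2m, the light chain of class I molecules, had 87.7, 98.2 and 131 TMM-normalized CPM in adropin and 82.6, 105 and 151 in saline, a log2 fold change of -0.06 ± 0.12 (SE, edgeR adjusted p = 0.921). Of 5 microglial markers, Cx3cr1 had an unadjusted p of 0.0225 with a log2 fold change of 0.18 (edgeR adjusted p = 0.874), and summed microglial levels ran from 177 to 247 TMM-normalized CPM in adropin and from 166 to 229 in saline. For the 5 lymphoid and interferon response genes the sums were 22.8 to 45.1 and 18.6 to 43.5. The ranges of both sums overlapped, as did those of the inducible subunits.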

How the data were processed

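Poly-A selected libraries of brain RNA from 16 mice were sequenced as paired reads. The authors aligned these with STAR to GRCm38 (Ensembl release 76). The deposited raw counts come from featureCounts and hold reads with a unique, unambiguous assignment. The authors' CPM file was not used. Repeats of the same gene, 276 of 40757 entries, were dropped.

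TMM factors (edgeR 4.0.16 in R 4.3.3) used all genes. The test was edgeR's quasi-likelihood test on 14949 genes over 1 CPM in at least 7 mice, without 355 ribosomal RNA genes. Log2 values used a prior count of 2, and correlations 100000 permutations. DESeq2 1.42.0 and limma-voom (limma 3.58.1) were among the alternatives. On simulated counts for 14949 genes, edgeR recovered 199 of 200 genes changed 2-fold and called 14 unchanged genes. Each mouse was 1 replicate, and the counts of all 56 pairs within groups differed beyond sampling noise (lowest chi-square 8.52 per degree of freedom). Lengths and positions came from the GENCODE annotation of GRCm38. Exons of 14 members overlap another gene, and the use of strand was not stated. Totals from 35026503 to 70314050 limit precision mainly for members near 1 CPM.

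The members and gene lists were chosen with earlier results of these data known. Named genes are the catalytic subunits with their inducible counterparts, members with an unadjusted p below 0.05, the 3 highest and the 3 lowest log2 fold changes, the highest and lowest core and ATPase genes by level per length, members below the filter, and Nfe2l1, Pomp, Tap1, Tap2 and B2m.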

Additional observations from a re-analysis of the deposited data

Results flagged for a closer look

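The highest and the lowest mouse of each group were set against the other mice for 134 combinations of gene and group, and 6 of them stood apart by Dixon's criterion, where chance at 1 in 20 gives 6.7. They involve 2 mice. For saline mouse 5_4 the values, in TMM-normalized CPM, were 77.0 for Psmb2 (the next mouse had 61.2), 78.1 for Psmb5 (next 60.5), 15.3 for Psmd10 (next 12.5) and 101 for Psmd8 (next 90.3). For adropin mouse 4_3 they were 9.74 for Psmg4 (next 7.56) and 47.3 for Psmb10 (next 39.9). Since the members varied together between mice, these 6 values do not count as independent. No explanation was tested.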

How the results depend on the processing

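The adjusted p stayed at or above 0.05 for all members and related genes in every fit, DESeq2, limma-voom, library size only, DESeq2 size factors in edgeR, a minimum of 10 counts per mouse, no filter, both blocks, the Gm42418 covariate and the 16 fits that left out a mouse. The number of members below 0 was 27 with the Gm42418 covariate and 41 under the replicate block on the first label number, against 37, with medians of -0.0076 and -0.12 against -0.049. Same-numbered mice of opposite groups did not deviate together (r from -0.27 to 0.22 over 5 pairs for the first and from -0.56 to 0.30 over 17 for the second number), and 1 of 8 mice correlated best with its own first number and 4 of 14 with their own second number. The meaning of the numbers is not given in the sources used here, and they were not taken to pair the mice. The replicate block on the first number draws its treatment difference from 8 mice only. It gave 1 member and 1 related gene (Tap1, log2 fold change 0.34) with an unadjusted p below 0.05, against 0 each. It turned the log2 fold changes of Psmb8 (0.061), Psmb9 (0.093), Psmf1 (-0.029) and Tap2 (0.015), and within its blocks the ratio of Psmb10 to Psmb7 (0.065), and raised the ratio differences of Psmb8 to Psmb5 to 0.31 and of Psmb9 to Psmb6 to 0.34. The block on the second number turned none and gave a median of -0.077 with 40 members below 0.

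The Gm42418 covariate turned the log2 fold changes of Psmb8 (0.095), Psmb5 (0.014), Psmb10 (0.013), Psmb7 (0.015) and Psmd5 (-0.015), limma-voom that of Psmb8 (0.0075), and the difference of medians those of the ratios of Psmb9 to Psmb6 (-0.030) and Psmb10 to Psmb7 (0.028). With all exons as length, the alpha ring ratio was 2.71. With each mouse left out, from 0 to 1 members (Psmg4, without adropin mouse 4_3) and from 0 to 2 related genes (Nfe2l1, Ube3c and Tap1, without adropin mouse 4_3 or 2_4 or saline mouse 5_3) had an unadjusted p below 0.05, beside 2.56% to 9.67% of all genes in these fits, the highest without mouse 4_3. The difference in log2 ratio ran from 0.013 to 0.13 for Psmb8 to Psmb5, from -0.063 to 0.10 for Psmb9 to Psmb6 and from -0.024 to 0.028 for Psmb10 to Psmb7, and r of Psmb8 with Psmb9 from 0.403 to 0.643. The log2 fold changes that turned sign ran from -0.087 to 0.10 for Psmb8, -0.10 to 0.022 for Psmb5, -0.14 to 0.026 for Psmb9, -0.097 to 0.020 for Psmb10, -0.072 to 0.0074 for Psmb7, -0.00034 to 0.071 for Psmd5, -0.13 to 0.0076 for Pomp and -0.11 to 0.028 for B2m. The length of all exons, the class means and SDs without mouse 5_4 (the latter also without 4_3) and the markers without mouse 8_3 were chosen after seeing the data. The cause of these changes was not tested. Depth limits Psmb8, Psmb9 and Psme2b most, at 56 to 200 counts per mouse.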
